A study of Mus musculus with 3 samples.

Results

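The proteasome genes were described in 3 libraries of chromatin-bound RNA from mouse bone marrow-derived macrophages, cells grown in culture from marrow progenitors. Genes were taken by symbol: those named Psma to Psmg with a number and at least 1 protein-coding transcript, leaving out the immunoproteasome genes Psmb8, Psmb9 and Psmb10. Of 54 genes with such a name, 4 had no protein-coding transcript and 3 were the immunoproteasome genes, which left 47 of 55536 annotated genes. The cells came from C57BL/6J mice. They were given 100 ng/ml Lipid A for 12 h, kept without it for 12 h and then given 100 ng/ml Lipid A again for 120 min. All 3 libraries belong to this condition and carry the labels of biological replicates 1, 2 and 3, with 1 µg, 250 ng and 500 ng of starting RNA. Neither the animals behind the replicates nor their age or sex are given, so an SD here is the spread among libraries and may be technical in part or whole. Cells without Lipid A or with a single dose were not analysed here, so the values are levels and show no change with treatment.

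The proteasome degrades proteins marked with ubiquitin. Its 20S core is a barrel of outer alpha rings and inner beta rings, and cleavage is carried out by Psmb5, Psmb6 and Psmb7 inside the barrel. The 19S cap binds the ubiquitin mark, unfolds the protein with a ring of ATPases and feeds it into the core. PA28, built from Psme1 and Psme2, is an alternative cap without ATPases, known for its induction by interferon and its role in making peptides for antigen presentation. Chromatin-bound RNA is enriched in transcripts that are being made or have not left the nucleus, so a level here is not the level of mature cytoplasmic messenger RNA or of protein.

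The 47 genes held 7 alpha genes (Psma1 to Psma7) and 7 beta genes (Psmb1 to Psmb7) of the 20S core. The 19S cap was represented by 6 ATPase genes (Psmc1 to Psmc6) and 11 non-ATPase genes, and PA28 by 2 genes. A further 7 genes encode assembly factors (Psmd5, Psmd9, Psmd10 and Psmg1 to Psmg4) and 3 encode other regulators (Psme3, Psme4 and Psmf1). The testis form of an alpha subunit, Psma8, and the thymus form of a beta subunit, Psmb11, were kept apart. The symbol rule also took in Psmc3ip, a meiotic recombination factor that is no proteasome subunit, and Psme2b, a copy of Psme2.

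Promoters are shown for both PA28 genes and for the 20S core genes with the highest and the lowest mean alignment-based level. The results turn on these 4 genes. Each promoter is 250 bases before to 50 bases after a RefSeq start site on the build GRCm38.p6, on the strand of the gene. Capitals mark the interferon-stimulated response element core (GAAA, any 2 bases, GAAA) in Psme1, read on the reverse strand, and the antioxidant response element core GCNNNGTCA in Psmb5 and Psmb6, also on the reverse strand. The Psme2 window holds neither. It is 1 of 2 for that gene in the table.
Psme1, chr14:55578244-55578543, + strand: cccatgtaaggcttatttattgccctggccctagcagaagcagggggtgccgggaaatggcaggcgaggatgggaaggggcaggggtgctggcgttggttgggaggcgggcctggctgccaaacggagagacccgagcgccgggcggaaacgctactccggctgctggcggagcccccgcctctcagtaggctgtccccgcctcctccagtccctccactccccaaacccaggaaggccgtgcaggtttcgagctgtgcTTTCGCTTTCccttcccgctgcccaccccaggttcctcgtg
Psme2, chr14:55591052-55591351, - strand: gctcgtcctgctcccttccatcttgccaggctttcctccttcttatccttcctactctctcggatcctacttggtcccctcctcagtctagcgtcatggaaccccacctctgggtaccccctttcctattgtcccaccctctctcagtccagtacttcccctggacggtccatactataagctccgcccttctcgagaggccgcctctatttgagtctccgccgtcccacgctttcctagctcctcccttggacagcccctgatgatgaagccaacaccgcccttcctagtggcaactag
Psmb5, chr14:54617946-54618245, - strand: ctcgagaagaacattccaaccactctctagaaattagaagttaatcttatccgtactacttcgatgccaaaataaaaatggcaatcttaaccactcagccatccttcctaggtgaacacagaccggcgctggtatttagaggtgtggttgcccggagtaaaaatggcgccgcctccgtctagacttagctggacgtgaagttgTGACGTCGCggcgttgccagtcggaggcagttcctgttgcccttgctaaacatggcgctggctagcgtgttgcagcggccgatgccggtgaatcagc
Psmb6, chr11:70525107-70525406, + strand: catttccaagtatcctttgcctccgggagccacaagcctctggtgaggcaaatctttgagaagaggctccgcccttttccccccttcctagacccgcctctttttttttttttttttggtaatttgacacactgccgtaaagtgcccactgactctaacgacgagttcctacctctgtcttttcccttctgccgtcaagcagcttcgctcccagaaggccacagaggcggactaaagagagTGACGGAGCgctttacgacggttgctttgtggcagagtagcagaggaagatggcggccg

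Promoters were found in the table for 39 of the 47 genes, 42 windows in all, and were searched on both strands. The antioxidant response element core, the letters bound by Nrf1 and Nrf2, stood in 6 of 42 windows, or 14.3%, beside 12.4% of all 32851 windows. Its carriers were Psmb5, Psmb6, Psmc6, Psmd12, Psmd9 and Psme4. The interferon-stimulated response element core stood in 5 of 42 windows, or 11.9%, beside 3.44% of all. These were Psmb3, Psmd4, Psmd9, Psme1 and Psmg4, of which Psme1 alone belongs to PA28. GC boxes (GGGCGG) stood in 23 windows, or 54.8%, beside 35.7% of all, and CCAAT in 14, or 33.3%, beside 37.4%. The AP-1 type core TGAGTCA stood in 1, or 2.38%, beside 5.2%. A match says only that the letters are present, and binding was not measured.

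Nearly all subunit genes were present in chromatin-bound RNA. At a TPM (a length-scaled relative abundance of transcripts) of at least 1 in all 3 libraries, 42 of 47 genes counted as expressed, where 42% of protein-coding genes did. All 14 genes of the 20S core, all 17 of the 19S cap and both PA28 genes were among them. The 5 that were not expressed were the assembly factors Psmg1 and Psmg4, the tissue-restricted Psma8 and Psmb11, and Psmc3ip. By read-based TPM 45 of the 47 genes passed the same threshold, Psmg1, Psmg4 and Psmb11 among them. The share of all protein-coding genes that passed by read-based TPM was not computed. Read-based TPM was higher than alignment-based TPM for 82.8% of expressed protein-coding genes, so the larger count is not particular to these genes. The median expressed protein-coding gene, over 9245 genes, had a TPM of 12 ± 1.99 (SD, n = 3). In all 3 libraries 31 of the 47 genes lay above it, where 18.5% of protein-coding genes did.

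**Figure D1:**
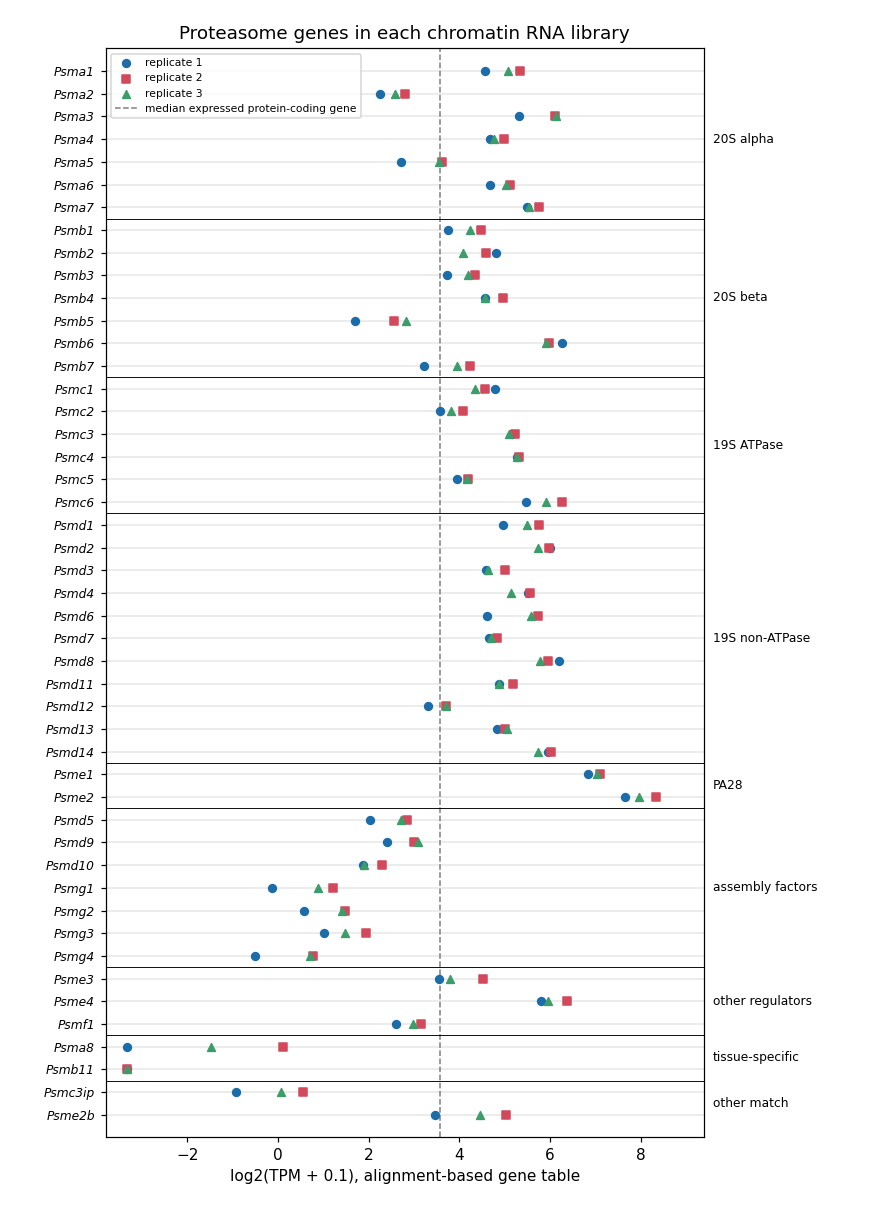
Level of each of the 47 genes in each library, as log2(TPM + 0.1) from the alignment-based gene table; symbols are the 3 replicates and the dashed line is the mean over libraries of the median of 9245 expressed protein-coding genes. Psme2 and Psme1 lie farthest to the right, at mean TPM of 259 and 128, and the assembly factors lie left of the line.

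The 19S cap genes stood somewhat above the 20S core genes. The median TPM of the 14 core genes was 23.6, 27.5 and 21.2 in replicates 1, 2 and 3, and that of the 17 cap genes was 29.4, 37.3 and 34.4. The core was below the cap in each library, by a mean of -0.49 ± 0.20 on the log2(TPM + 0.1) scale (SD, n = 3). Both lay above the median expressed gene, at 2-fold for the core and 2.81-fold for the cap. With read-based values the difference between core and cap was -0.12, and it was -0.98 over protein-coding transcripts alone. No p-value is given for differences between gene groups, since the members were chosen by name and are not replicates.

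Within the 20S core the alpha genes stood above the beta genes by 0.79 ± 0.15 (log2 difference of medians, higher in 3 of 3 libraries). The difference was 0.25 on CPM and 0.34 with means over genes in place of medians. Psma3 and Psma7, both alpha ring subunits, were the highest of the alpha genes, with TPM of 60 ± 17.2 and 48.4 ± 4.64. Over protein-coding transcripts of the alignment-based table they were among the lowest, at 6.67 ± 0.332 and 7.83 ± 0.581, and Psma4 was highest at 16.8 ± 2.17. Psma2 and Psma5 were the lowest, at 5.83 ± 1.13 and 10.1 ± 3.13, but their estimates depend strongly on how reads were assigned. Read-based TPM was 25.6 ± 8.99 for Psma2 and 29.4 ± 4.61 for Psma5. Of the 31-base words in Psma5 transcripts, 58.7% also occur in other genes, most of them in Gm8394. The other alpha genes, Psma1, Psma4 and Psma6, lay between 28.1 and 32.6, closer to each other than their SDs of up to 8.63.

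The catalytic beta genes were far apart. Psmb6, which gives caspase-like cleavage and lies at chr11:70525367-70527858 on the + strand (mm10), had TPM of 76.5, 63.3 and 60.4. Psmb7, which gives trypsin-like cleavage, had 9.31, 18.9 and 15.4. Psmb5, which gives chymotrypsin-like cleavage and lies at chr14:54614119-54618022 on the - strand, had 3.13, 5.8 and 6.97. Psmb6 was thus the highest and Psmb5 the lowest of the 14 core genes in the mean over libraries of alignment-based TPM. The difference between them was 13-fold, with no overlap. Psma3 exceeded Psmb6 in replicates 2 and 3, at 69.2 and 70.7, and Psma2 was below Psmb5 in replicate 3, at 5.88. Read-based means were 95.8 for Psma3, 71.7 for Psmb6 and 6.58 for Psmb5. Over protein-coding transcripts alone Psmb6 was 3.17-fold above Psmb5. Psmb7 and Psmb3 were then the lowest in the alignment-based table, at 3.02 ± 0.637 and 3.23 ± 0.53. Psmb5 rests on few counts, 27, 58 and 75 in the 3 libraries, and 71.7% of its 31-base words occur in other genes, so its level is uncertain. The other beta genes, the structural subunits Psmb1 to Psmb4, had mean TPM between 17.2 and 26.1. For Psmb7, 405 exonic bases overlap Nek6 on the opposite strand. Whether counting used strand is not given in the sources used here.

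The ATPase genes of the 19S cap covered a narrower range, from a TPM of 14.3 ± 2.56 for Psmc2 to 60.3 ± 16.3 for Psmc6. This order was not kept over protein-coding transcripts of the alignment-based table. There Psmc3 was highest, at 17.5 ± 1.23, Psmc5 was lowest, at 4.74 ± 0.311, and Psmc6 had 9.41 ± 3.11. In TPM, Psmc4 and Psmc3 varied least, at 39.1 ± 0.644 and 35.8 ± 1.44, while on log2 CPM they had the highest SDs of the 6, at 0.24 and 0.33. Exons of Psmc3 share 215 bases with Slc39a13 on the opposite strand, which had counts of 1143, 1654 and 1364 against 446.4, 494 and 511.1 for Psmc3. Among the non-ATPase genes, Psmd8 (63.4 ± 9.34), Psmd2 (60.2 ± 6.19) and Psmd14 (60.2 ± 5.98) were highest, and their SDs overlap. Psmd2 is a large scaffold of the cap base, Psmd8 a lid subunit, and Psmd14 the enzyme that removes ubiquitin chains from substrates. Psmd4, a ubiquitin receptor, had 42.5 ± 6.56. The lid subunit Psmd12 was lowest, at 11.9 ± 1.79, and was the single cap gene not above the median expressed gene in all libraries. Over protein-coding transcripts of the alignment-based table Psmd1 had the highest mean of the non-ATPase genes, 27.6 ± 11.9. Psmd6 then had the lowest, 7.16 ± 1.84, and Psmd14 had 17.4 ± 1.94. ATPase and non-ATPase medians did not keep 1 order: the log2 difference was 0.09, -0.66 and -0.40 in replicates 1, 2 and 3. Over protein-coding transcripts alone the ATPase genes were lower in 3 of 3 libraries, by -0.80 ± 0.11.

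The PA28 genes had the highest TPM of all 47 in the alignment-based gene table. This result depended on length scaling, on the quantification and on which transcripts were counted. Psme2, at chr14:55587441-55591113 on the - strand, had TPM of 201, 326 and 251, above 98.6% of expressed protein-coding genes by its mean. Psme1, at chr14:55578123-55581529 on the + strand, had 115, 137 and 131, above 95.7%. In TPM of that table no other of the 47 genes reached either in any library. In its estimated counts, which are not scaled by length, Psme4 was above both in each library, at 1540, 3451 and 2910. Psme2 had 1024, 1728 and 1697 counts, and Psme1 had 1311, 1539 and 1658. The effective length was 415.6, 340.6 and 392.8 bases for Psme2 and 2266, 2680 and 2711 for Psme4. By read-based TPM Psme2 stayed highest, at 405 ± 41.6. Psme1, at 98.2 ± 9.64, then had a lower mean than Psme4 (114 ± 27.4) and Psmd14 (113 ± 18.1). Psme2 was 2-fold above Psme1 (log2 difference 1.00 ± 0.23, higher in 3 of 3 libraries), and read-based values gave 4.12-fold. As a group PA28 stood above the 20S core by 2.68, 2.95 and 3.10 on the log2 scale, a mean of 2.91 ± 0.21, and above the 19S cap by 2.42 ± 0.07.

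Most PA28 reads were assigned to transcripts annotated as retaining an intron. These made up 98.9%, 90.6% and 89.9% of the read-based estimated counts of Psme2 in replicates 1, 2 and 3. For Psme1 they made up 92.5%, 83.6% and 82.2%. By the mean, both were above the other 27 of the 47 genes with such a share in the read-based table. Protein-coding transcripts of Psme2 held 6.85% ± 5.01 and those of Psme1 13.5% ± 5.39 (SD, n = 3). The alignment-based table gave Psme2 a protein-coding share of 25.3% ± 16.5 and a retained-intron share of 74.7% ± 16.5, and Psme1 shares of 13.5% ± 6.21 and 85.6% ± 6.74. A single retained-intron transcript held 40.6% ± 3.9 of the Psme1 counts. In the tables a read from an intron can be assigned only to a transcript that includes that intron, and how much of these shares comes from unspliced RNA was not tested.

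Over protein-coding transcripts alone the PA28 lead shrank or was lost. Alignment-based TPM of these transcripts was 7.59, 57.2 and 56.3 for Psme2 and 7.21, 18.3 and 20.4 for Psme1, so replicate 1 stood far below the others. PA28 was then above the 20S core by 0.11, 2.03 and 1.99 on the log2 scale, and against the 19S cap the differences were -0.72, 0.78 and 1.14. In the read-based table PA28 lay below the core in 1 of 3 libraries and below the cap in 2 of 3. The means were -0.11 ± 0.83 and -0.54 ± 0.83. This count over protein-coding transcripts was chosen after seeing the data. The order of core below cap held in 3 of 3 libraries in both tables, at -0.98 ± 0.24 and -0.43 ± 0.07.

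**Figure D2:**
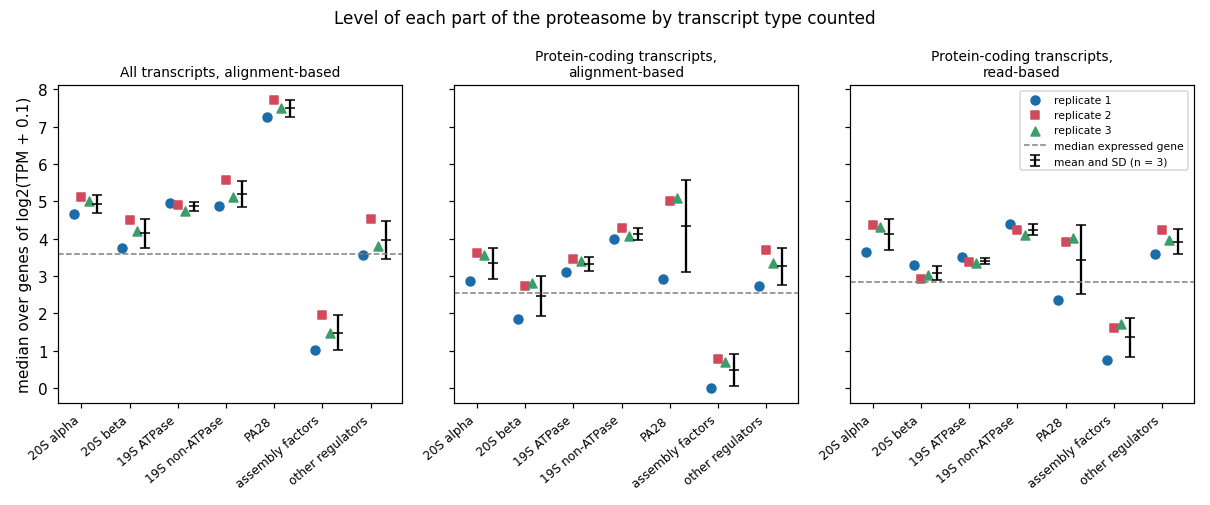
Median level of 7 groups of proteasome genes, as the median over genes of log2(TPM + 0.1), for all transcripts (left), protein-coding transcripts of the alignment-based table (middle) and of the read-based table (right); symbols are replicates, bars are mean and SD over n = 3 libraries, and the dashed line is the median of the same 9245 genes. PA28 stands at 7.49 on the left, at 4.34 in the middle and at 3.44 on the right, with replicate 1 low in the middle and right panels.

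The copy Psme2b could not be separated cleanly from Psme2. Its TPM was 10.9, 32.6 and 22, and 76.5% of its 31-base words occur in Psme2, while 33.5% of those of Psme2 occur in Psme2b. In the alignment-based table Psme2 exceeded it 12.7-fold. Over protein-coding transcripts of the read-based table the log2 difference was -1.66 ± 1.70, with Psme2 lower in 3 of 3 libraries. The split between both genes is therefore uncertain. Psme2b also shares 41 exonic bases on the same strand with 9930111J21Rik1. That gene had counts of 1606, 2305 and 1608, against 92.23, 294 and 222 for Psme2b. Psme1 and Psme2 lie close together with Emc9 between them. Emc9, a subunit of a membrane protein insertion complex, had TPM of 6.9, 6 and 6.05, below both. Beyond Psme2 lie Rnf31, a ubiquitin ligase subunit, with 140, 129 and 118, and Irf9, a transcription factor of interferon signalling, with 38.7, 46.2 and 43.9.

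The retained-intron share was high across the proteasome genes. It could be computed for 29 genes with such an annotated transcript and at least 20 estimated counts in every library. Their median share was 52.9%, 58.2% and 59.3% in replicates 1, 2 and 3, a mean of 56.8% ± 3.43, beside 32.9% ± 0.904 over 5950 expressed protein-coding genes. The alignment-based table gave 58% over 27 genes beside 30.9%. After Psme2 and Psme1 the highest read-based share was that of Psmb3, at 78.5% ± 9.72. This order was not kept in the alignment-based table, where Psmb7 (89.7% ± 7.07) and Psmb3 (88.9% ± 4.09) had higher mean shares than both PA28 genes. The lowest were those of the assembly factor Psmd9 (4.38% ± 0.963), the ATPase gene Psmc1 (5.05% ± 1.76) and the lid gene Psmd7 (13.1% ± 0.165). By group, the median was 64.8% ± 3.99 over 8 core genes, 43.2% ± 1.38 over 13 cap genes and 89.6% ± 5.31 over the 2 PA28 genes. For Psmc5, transcripts marked for nonsense-mediated decay held 71.7% ± 17 of read-based counts and 73.4% ± 4.36 of alignment-based counts. For Psmd14, processed transcripts held 61.5% ± 0.967 and 43% ± 3.85. No p-value is given, since genes are not replicates and differ in which transcripts are annotated. The expressed proteasome genes spanned a median of 12.5 kb, beside 24.2 kb over expressed protein-coding genes.

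**Figure D3:**
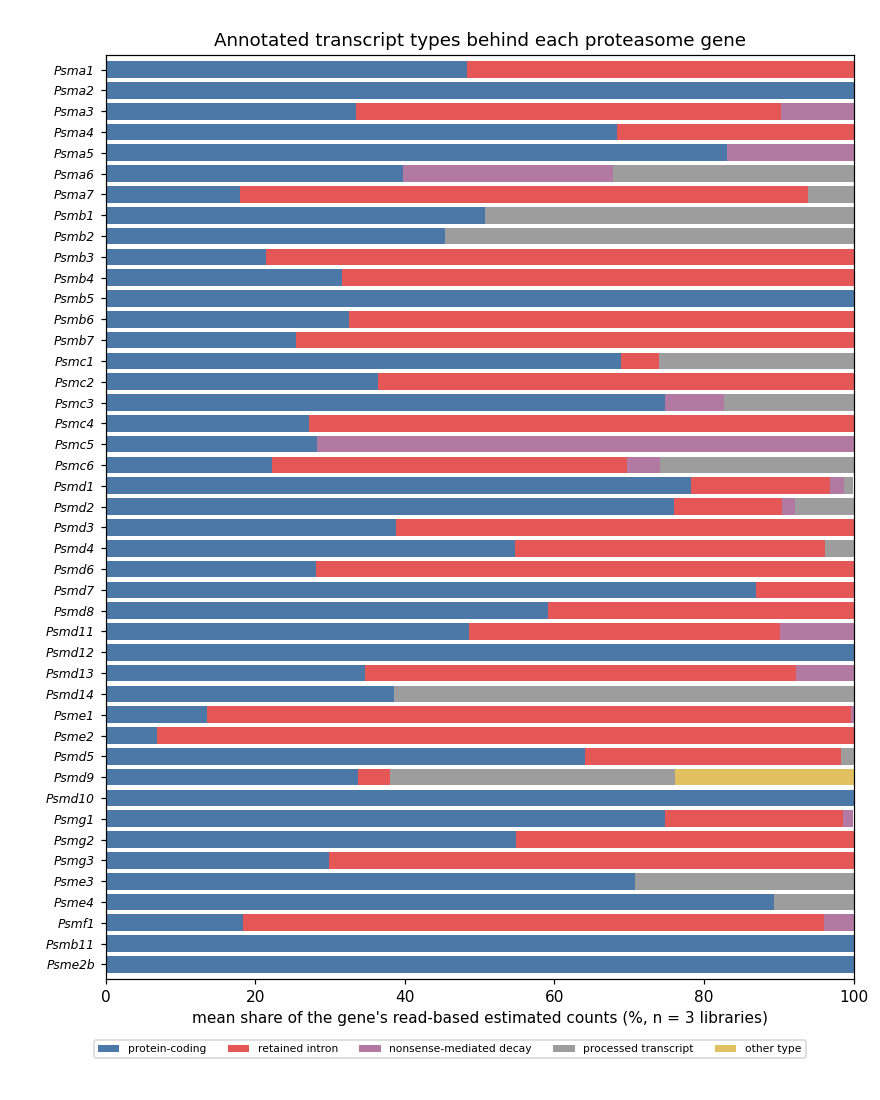
Mean share over n = 3 libraries of each gene's read-based estimated counts on protein-coding, retained-intron, nonsense-mediated decay, processed and other transcripts, for the 44 genes with at least 20 counts in every library. Retained-intron transcripts make up 93.2% of Psme2 and 86.1% of Psme1, and none is annotated for Psmb5.

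Constitutive catalytic genes were set against the immunoproteasome genes that replace them in stimulated and immune cells. Psmb8, the counterpart of Psmb5, had TPM of 56.2, 49.5 and 43.4, 9.66-fold above Psmb5. Psmb10, the counterpart of Psmb7, had 45.5, 79.1 and 49.4, 4.01-fold above Psmb7. Psmb9, the counterpart of Psmb6, had 46.5, 40.6 and 36.1, which was 0.616 of the level of Psmb6. Each order held in 3 of 3 libraries without overlap between the genes. Of 7 gene pairs compared, each gave p = 0.25 in an exact two-sided sign-flip test, also after Benjamini-Hochberg adjustment, which is the smallest p that 3 libraries allow.

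The order of Psmb8 and Psmb5 was opposite over protein-coding transcripts alone. Retained-intron transcripts held 93.4% ± 2.78 of the Psmb8 counts, while none is annotated for Psmb5. Protein-coding TPM was 1.38, 2.15 and 1.73 for Psmb8, below Psmb5 in 3 of 3 libraries, at 0.356 of its level. The read-based table gave 0.631. Psmb9 stayed below Psmb6, at 0.428 and 0.461 in the alignment-based and read-based tables. Psmb10 stayed above Psmb7, at 2.68-fold in 3 of 3 libraries and 1.32-fold in 2 of 3.

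**Figure D4:**
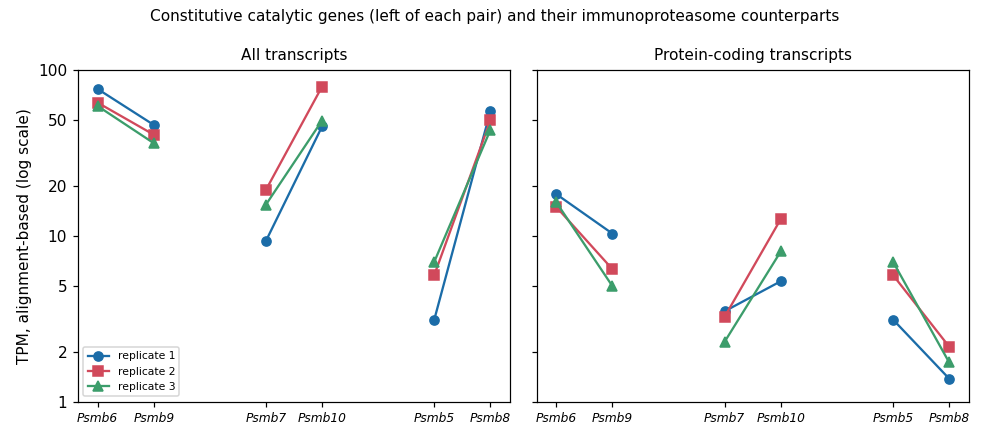
Alignment-based TPM on a log scale for Psmb6, Psmb7 and Psmb5 and the immunoproteasome gene that replaces each, for all transcripts (left) and protein-coding transcripts (right); each line joins both genes of a pair in 1 replicate. Psmb8 is 9.66-fold above Psmb5 on the left and at 0.356 of its level on the right.

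Assembly factors, which bring subunits together and are not part of the finished particle, had low levels. Their median TPM was 1.93, 3.77 and 2.67, at 0.233 of the median expressed gene. Psmd9, a chaperone of the 19S base, was highest at 7.21 ± 1.77, followed by Psmd5 at 5.84 ± 1.61 and Psmd10 at 3.99 ± 0.687. This order was not kept over protein-coding transcripts. In the alignment-based table Psmd10 then had 3.99 ± 0.684, Psmd5 1.93 ± 0.805 and Psmd9 1.29 ± 0.611. The read-based table gave 4.86 ± 0.36, 6.11 ± 1.96 and 2.64 ± 0.926 for the same genes. Psmg1 to Psmg4, chaperones of the 20S core, had mean TPM from 1.25 to 2.79, and Psmg4 rests on 3, 6 and 8 counts. For Psmd9, 1849 exonic bases overlap Gm26745 on the opposite strand.

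The other regulators differed widely. Psme4, the nuclear activator PA200, had TPM of 55.4, 82.8 and 62.4 and was the third highest of the 47 genes by its mean. That mean, 66.9 ± 14.2, was hardly above that of Psmb6, 66.7 ± 8.59, and in replicate 1 Psmb6 was higher, at 76.5. Over protein-coding transcripts Psme4 ranked second in the alignment-based table and had the highest mean in the read-based table, 55.6 ± 8.86. Psme3, the nuclear relative of Psme1, had 11.7, 23 and 13.8, 8.16-fold below Psme1, and 2.73-fold below it in the read-based table. Over protein-coding transcripts of the read-based table Psme1 was at 0.89 of Psme3. Psmf1, a proteasome inhibitor, had 7.55 ± 1.44. Psma8 had 0, 14 and 6 counts. Psmb11 had 0 counts in every library of the alignment-based table, where 3 counts would be at most 2.9e-05% of a library's total, and read-based TPM of 2.16, 4.73 and 3.57.

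Genes that work with the proteasome were described from a list of 28, of which 27 were found by symbol. All 27 were expressed, beside 42% of protein-coding genes, with a median TPM of 19.9 ± 1.68. In every library 18 exceeded the median expressed gene, beside 18.5%. Transcription factor genes Nfe2l2 and Nfe2l1, whose products bind the antioxidant response element, had 104 ± 11.3 and 69.1 ± 13.6. Ddi2, the protease that activates the product of Nfe2l1, had 8.56 ± 0.705. Ecpas, which binds the whole particle, had 120 ± 42.4. The ATPase gene Vcp, which extracts ubiquitin-marked proteins, had 92.3 ± 19.4. Ubiquitin receptor Adrm1 had 43.3 ± 9.98, the small cap subunit Sem1 18.1 ± 3.83 and the core maturation factor Pomp 24.8 ± 9.75. Ubqln2, a shuttle receptor, was lowest at 1.24 ± 0.0794.

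Replicate 1 was lower in TPM for the proteasome genes as for other genes, but not on TMM-scaled CPM. Of the 42 expressed genes, 32 had their lowest TPM in replicate 1, where 63.6% of expressed protein-coding genes did. The highest TPM was in replicate 2 for 32 of 42, where 63.1% of expressed genes did so, and in replicates 1 and 3 for 5 each, beside 17.7% and 19.2%. The median log2 difference of replicate 1 from the mean of the others was -0.39, beside -0.37 over all expressed genes. On TMM-scaled CPM the median log2 difference was 0.01, with 20 of 42 genes lower in replicate 1. Over all expressed protein-coding genes it was -0.04, with 4949 of 9245 lower. This scale leaves out length and also brings the typical gene to a similar level in each library. The part of each was not tested. On that scale replicates 1, 2 and 3 were highest for 20, 10 and 12 of 42 genes, beside 38.2%, 29% and 32.9% of expressed genes. Replicate 1 also had the most starting RNA, 10293545 estimated counts against 17820066 and 17548564, and 1.87% of its counts on rows that name no gene, mostly spike-ins, against 0.39% and 0.519%. Their part in the difference was not tested.

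The median variation among replicates was somewhat lower for the members than for other genes. The SD over libraries of log2(CPM + 0.5) had a median of 0.18 over the 46 genes with at least 10 counts. It was 0.26 over all 12198 protein-coding genes that passed the same filter and 0.24 over the 9245 expressed protein-coding genes. The groups were not matched for level, and whether the members vary less than genes of similar level was not tested. Psmb2 varied most (0.72), with counts of 222, 162 and 143, followed by Psma8 (0.68) and Psmd8 (0.58). Psma1, Psmd2 and Psme2 varied least on this scale, at 0.02 each. In TPM the highest library was 1.73-fold above the lowest for Psma1, 1.22-fold for Psmd2 and 1.62-fold for Psme2. Without replicate 1 the medians were 0.08 for the members, 0.14 for the filtered protein-coding genes and 0.12 for the expressed ones.

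Alignment-based and read-based values differed by a median of 0.45 ± 0.09 over the 47 genes (log2, read-based over alignment-based), beside 0.39 ± 0.06 over expressed protein-coding genes. Read-based TPM was higher for 35 of 42 expressed genes, where it was so for 82.8% of expressed genes. Differences past 2-fold occurred in 3 of 42, beside 15.7%, and these were Psma2 (2.06 ± 0.33), Psma5 (1.57 ± 0.26) and Psme3 (1.20 ± 0.26). The label of macrophages was checked against fixed markers. All 10 macrophage markers were expressed, with a median TPM of 71 ± 19.3, and 2 of 23 markers of other cell types were, Kdr and Alas2. The summed TPM of those 23 was 15.3, 15.8 and 16.8, and 5 of them had 0 counts, among them Cd3e and Ly6g. By read-based values 5 of the 23 were expressed, with a summed TPM of 43.4, 56.9 and 53.7. Among these the T cell marker Cd3d had 14.5, 14.6 and 13.3 and the endothelial marker Pecam1 4.1, 9.82 and 9.68. Their part in the levels of the proteasome genes was not tested. In bulk RNA, fewer cells of a type and less RNA per cell cannot be told apart.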

How the data were processed

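Per the deposited notes, the authors quantified reads against mm10 with GENCODE M21. For each library they deposited estimated (expected) counts and TPM per gene and per transcript from an alignment, in the columns RSEM writes, and estimated counts and TPM per transcript from the reads directly, in the columns kallisto writes. The sources used here do not give program versions, settings or strand. TPM was used as deposited, with the read-based transcripts summed per gene. Estimated counts were rounded for edgeR 4.0.16 (TMM, at least 10 counts over the 3 libraries) in R 4.3.3, with DESeq2 1.42.0 size factors as an alternative. Rows naming no gene (spike-ins and numeric identifiers, 1.87%, 0.39% and 0.519% of counts) were left out of normalisation and tests. Shared sequence means 31-base words of GENCODE transcripts. Read-based totals were 18806319, 31394979 and 30481399. Limits from 0 counts cover counting error only. Members, lists and alternatives were chosen with earlier results of these data known. Every member could be named; for retained introns and spread, the 3 highest and 3 lowest. Alternatives covered pseudocounts, scaling, thresholds, quantification, transcript type and leaving out replicates. The planned protein comparison was not run.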

Additional observations from a re-analysis of the deposited data

How the results depend on the processing

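The levels moved with scaling and with the transcripts counted, while the core stayed below the cap in the mean under each setting run. With read-based TPM the log2 levels of core and cap were 5.19 and 5.31, with TPM rescaled over longer genes 5.91, 6.40 and 8.82 for core, cap and PA28, and with CPM 4.31 for the core and 6.65 for PA28. Over protein-coding transcripts alone (chosen after seeing the data) they were 2.96, 3.94 and 4.34, and read-based 3.55, 3.98 and 3.44. Core minus cap was -0.12 read-based, -0.77 on CPM and -0.98 over protein-coding transcripts. PA28 minus core was 2.45, 2.34 and 1.38 under the same settings and -0.11 over read-based protein-coding transcripts. PA28 minus cap was 2.32, 1.57, 0.40 and -0.54. Over protein-coding transcripts Psmb8 over Psmb5 was -1.49 (read-based -0.66), and in the read-based table Psme2 over Psme1 was -0.64, Psme2 over Psme2b -1.66 and Psme1 over Psme3 -0.17. The cause of these changes was not tested.

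Leaving out each replicate gave levels of 4.49 to 4.67 for the core, 5.0 to 5.17 for the cap and 7.38 to 7.61 for PA28. Differences ran from -0.58 to -0.38, 2.81 to 3.02 and 2.38 to 2.45. Expressed genes numbered 42 to 44, the median SD ran from 0.08 to 0.21 and the retained-intron median from 55.5% to 58.8%. On TMM-scaled CPM the highest library was replicate 1, 2 and 3 for 20, 10 and 12 genes, and replicate 1 for 8 with read-based TPM. The AP-1 type core TGAGTCA stood in the promoter of 1 gene, against 6 for the antioxidant response element core. Depth limits genes such as Psmb5, Psmg1 to Psmg4 and Psma8, which rest on fewer than 100 counts a library. No paired analysis was possible because there is 1 group. The planned comparison of protein sequences was not run.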
